A study of Mus musculus with 34 samples.

Results

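The peaks described here are those of the nuclear receptor coactivator NCOA2 and of SMARCA4, the ATPase of the SWI/SNF chromatin remodelling complex, that lie at gene promoters in mouse embryonic hindbrain. A peak was taken when the deposited table placed its summit at most 1000 bp from the gene it names. This kept 3052 of the 3444 NCOA2 peaks (88.6%) and 2721 of the 5460 SMARCA4 peaks (49.8%), 5773 peaks in all. A peak was classed as in both lists when it shared at least 1 bp with a promoter peak of the other protein, and otherwise as NCOA2 only or SMARCA4 only. The classes held 2115 NCOA2-only peaks, 1780 SMARCA4-only peaks and a shared class of 937 NCOA2 peaks that met 941 SMARCA4 peaks.

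NCOA2 belongs to the steroid receptor coactivator family. Such proteins are brought to DNA by nuclear receptors, for example the receptors of retinoic acid and thyroid hormone, and in turn bring histone acetyltransferases such as EP300. SMARCA4 moves nucleosomes with energy from ATP as part of BAF complexes, whose subunits change as neural progenitors become neurons. H3K4me3, trimethylation of lysine 4 of histone H3, marks the starts of active or poised genes. H3K27me3 is laid down by the Polycomb complex PRC2 and marks silent developmental genes, and gene starts that hold both marks are called bivalent.

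Both proteins were mapped by chromatin immunoprecipitation with the anti-FLAG antibody M2 and sequencing, at embryonic day 11.5, in 129/C57BL/6 embryos carrying a FLAG knock-in. Tissue was pooled from about 300 embryos for NCOA2 and its control and about 150 for SMARCA4, male and female together. The genotype tag names a SMARCA4/FLAG knock-in on the NCOA2 sample and its control too, and the tissue tag of the SMARCA4 sample says forebrain, while its title says hindbrain. That sample was used as hindbrain. The NCOA2 control is called an input control in its label, which does not say what it holds. No sample of the series is labelled as a control of SMARCA4 in hindbrain. The histone marks came from forebrain of CD1 embryos of the same day, about 150 pooled, although their protocol text names heart and hindbrain, so every overlap with them compares different tissues and strains. There was 1 library per condition and no replicate, so no p-value was computed. Intervals of shares and medians are exact 95% intervals. Those of differences and ratios were built in other ways, given with the processing. All cover counting error only.

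Library depth is unknown, and the tables give only the tags of each peak. NCOA2 promoter peaks held 8 to 274 tags (median 37) and were 255 to 4902 bp long (median 958). SMARCA4 promoter peaks held 9 to 189 tags (median 18) and were 123 to 3520 bp long (median 364). Tags were therefore compared only within a list. Markers of other cells with a promoter peak in any deposited table were 3 erythroid, 11 endothelial and 14 mesenchymal or neural crest genes. None held a promoter peak of either protein, beside 21.6% of all such gene names for NCOA2 and 19.1% for SMARCA4. Hindbrain identity genes held SMARCA4 at only 1 of 25, and forebrain genes at 0 of 10. A count of 0 therefore does not tell other cells from those of the tissue.

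The promoters below are examples, so that the kind of sequence behind each class can be seen. They were taken in order of tags from the peaks named below for most tags, in their class or outside the NCOA2 control. Shared genes were ordered by NCOA2 tags. RefSeq (GRCm38.p6) gave exactly 1 start for each. Other genes of a class may have more tags. Each run is the 150 bases before the start, 5′ to 3′ in the direction of the gene. Capitals mark matches, on either strand, to 11 words searched. Senp6, Gnb1, Hnrpk and Cdc2l5 are of the shared class, Pgk1 and Lrrc41 of NCOA2 only, and Zfp710 and Trim71 of SMARCA4 only. The peaks are on mm9 and were not placed on these starts, so a gene may have a further start under its peak.
Senp6 (chr9:80066753-80066902, plus strand): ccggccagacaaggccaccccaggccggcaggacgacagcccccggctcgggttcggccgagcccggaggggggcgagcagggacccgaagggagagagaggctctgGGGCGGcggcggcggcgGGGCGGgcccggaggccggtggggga
Gnb1 (chr4:155491211-155491360, plus strand): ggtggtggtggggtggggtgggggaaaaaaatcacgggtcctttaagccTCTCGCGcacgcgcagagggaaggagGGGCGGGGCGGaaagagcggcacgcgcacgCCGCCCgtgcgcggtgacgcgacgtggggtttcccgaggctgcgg
Hnrpk (chr13:58402118-58402267, minus strand): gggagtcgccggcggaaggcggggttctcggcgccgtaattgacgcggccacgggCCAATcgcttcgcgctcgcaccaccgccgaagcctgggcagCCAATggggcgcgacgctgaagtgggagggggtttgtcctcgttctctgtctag
Cdc2l5 (chr13:17805098-17805247, minus strand): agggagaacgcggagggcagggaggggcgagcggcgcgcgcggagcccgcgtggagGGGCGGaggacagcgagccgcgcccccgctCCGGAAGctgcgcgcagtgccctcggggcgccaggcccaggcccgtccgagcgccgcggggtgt
Pgk1 (chrX:106186950-106187099, plus strand): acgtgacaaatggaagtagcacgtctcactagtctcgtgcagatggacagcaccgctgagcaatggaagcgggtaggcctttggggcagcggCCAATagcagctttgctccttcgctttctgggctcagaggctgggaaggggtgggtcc
Lrrc41 (chr4:116075119-116075268, plus strand): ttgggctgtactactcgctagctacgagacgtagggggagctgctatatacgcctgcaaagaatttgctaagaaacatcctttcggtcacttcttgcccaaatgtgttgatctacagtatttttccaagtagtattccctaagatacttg
Zfp710 (chr7:80024664-80024813, plus strand): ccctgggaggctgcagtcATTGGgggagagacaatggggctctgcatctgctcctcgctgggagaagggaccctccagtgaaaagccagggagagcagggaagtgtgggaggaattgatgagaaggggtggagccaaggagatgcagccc
Trim71 (chr9:114564370-114564519, minus strand): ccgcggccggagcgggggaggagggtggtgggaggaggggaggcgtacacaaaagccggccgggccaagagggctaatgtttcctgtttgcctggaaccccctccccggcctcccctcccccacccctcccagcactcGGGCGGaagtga

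Of all 32851 RefSeq windows of 300 bases, 35.7% held the SP and KLF word GGGCGG, 37.4% the CCAAT word, 8.86% the ETS word CCGGAAG and 2.56% the ZBTB33 word TCTCGCG. The other words were AGGTCA (nuclear receptor half-site, 16.3%), GCATGCG (NRF1, 3.58%), TGACGTC (CRE, 3.21%), CACGTG (E-box, 7.15%), AAGATGG (YY1, 6.34%), TTGGCGC (E2F, 2.45%) and TATAAA (the core promoter box bound by TBP, 13.6%). Matches may overlap and then run together in capitals. The runs of Senp6, Gnb1, Cdc2l5 and Trim71 held GGGCGG, those of Hnrpk, Pgk1 and Zfp710 held CCAAT, and that of Lrrc41 held none of the 11. A CCGGAAG stood in the run of Cdc2l5 and a TCTCGCG in that of Gnb1. A comparison of words or GC content between the classes is void, because only 76.0% of NCOA2-only genes, 72.8% of genes in both lists and 70.8% of SMARCA4-only genes had a window.

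Most promoter peaks of either protein did not coincide with a peak of the other. The shared class was 30.7% of the NCOA2 peaks (29.1 to 32.4%) and 34.6% of the SMARCA4 peaks (32.8 to 36.4%). Counting any peak of the other list, at a promoter or not, gave 31.6% and 35.1%. Away from promoters the lists met less: 73 of 392 NCOA2 peaks (18.6%, 14.9 to 22.8%) and 89 of 2739 SMARCA4 peaks (3.25%, 2.62 to 3.98%) lay over a peak of the other protein. Near the limit of 1000 bp, 7 of the 19 NCOA2 peaks at 900 to 1000 bp and 7 of the 15 at 1000 to 1100 bp lay over a SMARCA4 peak. For SMARCA4 these were 17 of 72 and 10 of 37. When peaks of both lists were cut to 200 bp on each side of the summit, an alternative chosen after the data were seen, the shared class fell to 23.2% and 26.0%. With an authors' score of at least 100, which kept 1068 NCOA2 and 581 SMARCA4 promoter peaks, it was 11.9% and 21.9%.

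**Figure D1:**
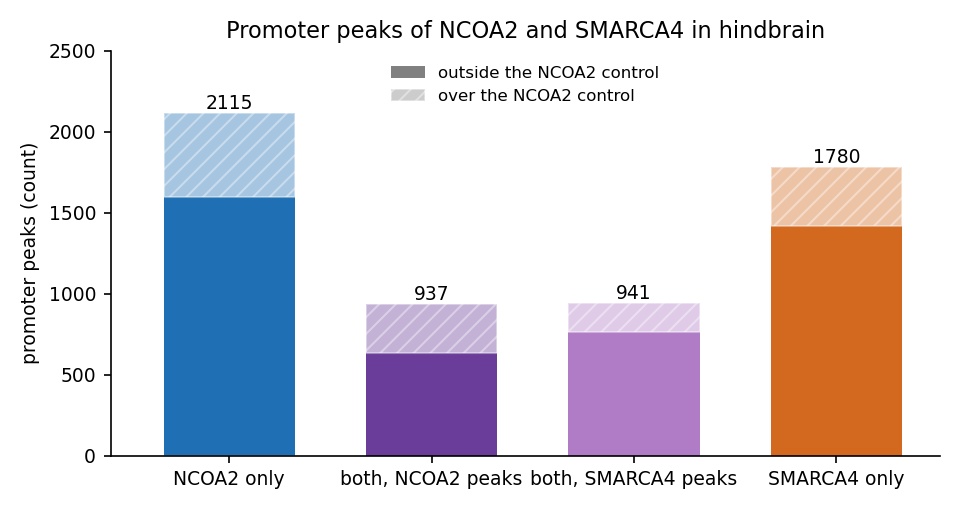
Number of promoter peaks (y axis) in each class, split into peaks outside the NCOA2 control list (solid) and over it (hatched); the shared class is counted once by its 937 NCOA2 peaks and once by its 941 SMARCA4 peaks. NCOA2-only peaks were the most numerous with 2115, and the part over the control was 32.6% among the shared NCOA2 peaks and 19.1% to 24.5% in the other classes.

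The shared class is defined by overlap, which limits how far apart the summits of a pair can lie. The 937 pairs had a median gap of 209 bp between summits (interquartile range 102 to 398 bp), and 57.7% of the gaps were at most 250 bp. In 68.5% of the pairs the SMARCA4 peak lay wholly inside the wider NCOA2 peak. Both peaks named the same gene in 901 pairs (96.2%). An exception was the promoter of Hnrpk, an RNA-binding protein of pre-mRNA processing, where the NCOA2 peak named Hnrpk and the SMARCA4 peak its neighbour Rmi1. Tag counts of the pairs ran nearly independently: Spearman's correlation over the 937 pairs was 0.14 for tags and -0.0021 for tags per bp, a description over peaks of the same 2 libraries.

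The shared promoters are given first in order of NCOA2 tags, among peaks with a gene symbol, leaving out genes that carry a clone or sequence name. Brd2, a reader of acetylated histones, had 180 NCOA2 tags over chr17:34255027-34259929 and 40 SMARCA4 tags. Zfx, an X-linked zinc finger activator, had 169 (chrX:91367484-91369221) and 13. Senp6, a SUMO protease, had 160 and 21. Gnb1, a G protein beta subunit, had 155 (chr4:154865031-154866842) and 25, Hnrpk 148 and 17, and the ubiquitin ligase scaffold Cul1 145 and 15. The genes were chosen by their NCOA2 tags; the medians of the class were 41 NCOA2 and 20 SMARCA4 tags. Brd2, Zfx and Gnb1 were outside the NCOA2 control; Senp6, Hnrpk and Cul1 were over it.

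Ordered by SMARCA4 tags, other genes led the shared class. The zinc finger gene Zfp532 had 189 SMARCA4 and 58 NCOA2 tags. Chd7, a chromodomain remodeller mutated in CHARGE syndrome, had 133 (chr4:8617068-8619341) and 80. Ddr1, a collagen receptor kinase, had 132 and 27, and Enah, an actin regulator of axon growth, 88 and 19. B3bp had 85 and 119 and Tead2, a DNA-binding partner of YAP, 85 and 32. Of these, Chd7 and Tead2 were over the NCOA2 control. Outside it, Lphn1 (84 SMARCA4 tags, beside 29 in an NCOA2 peak that names AK134933) and Fasn, the fatty acid synthase (78 and 60), followed.

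Promoters with NCOA2 alone included a housekeeping gene and several subunit genes of SWI/SNF itself. Pgk1, a glycolytic enzyme, had 274 tags over chrX:103381691-103382874, the most of any NCOA2 promoter peak. Its authors' fold enrichment was 90.43, beside a median of 7.27 in its class. The distal NCOA2 peak with the highest fold enrichment lies close by on chrX, and the source of this signal was not tested. Zmynd11, a reader of methylated histone H3, had 184, the kinase Tlk2 165, Arid1a 164 and Lrrc41 162. Scrt1, a neuronal zinc finger repressor, had 155. Pgk1 and Scrt1 were outside the NCOA2 control, and Zmynd11, Tlk2, Arid1a and Lrrc41 over it. Among NCOA2-only peaks outside the control with a gene symbol, Ptma followed with 147, Arid1b with 143, Smarce1 with 132 and Birc6 with 123.

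SMARCA4-only promoters were led by Mad2l2, a DNA repair and checkpoint protein, with 135 tags (chr4:147504216-147505857). Zfp710, a zinc finger gene, had 132 (chr7:87170059-87172180) and the potassium channel gene Kcnn1 120. The progenitor gene Trim71, a target of let-7 in early embryos, had 88. Igfbp4, which binds insulin-like growth factors, had 82, Rassf2 78 and Gdf11, a TGF-beta family ligand, 77. Trim71 was over the NCOA2 control and the other 6 outside it.

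Shared promoters held more tags than unshared ones in both libraries. The median NCOA2 peak held 41 tags (40 to 43) in the shared class and 35 (34 to 36) in NCOA2 only, a ratio of 1.17. The median SMARCA4 peak held 20 (19 to 20) against 17 (17 to 18), a ratio of 1.18. Under some alternatives the interval of the SMARCA4 ratio reached 1. The ratio was 1.06 (1.0 to 1.18) at 500 bp, and the same with peaks cut to 200 bp on each side of the summit. With an authors' score of at least 100 it was 1.11 (0.971 to 1.26). Shared peaks were also wider, at 1043 against 912 bp for NCOA2 and 393 against 347 bp for SMARCA4. Per 100 bp, NCOA2 tags were 3.90 (3.82 to 3.96) against 3.69 (3.65 to 3.73), and SMARCA4 tags 5.02 (4.96 to 5.06) against 4.99 (4.96 to 5.04), so the SMARCA4 intervals overlapped on that scale. The authors' fold enrichment had the same median, 7.27, in both NCOA2 classes, and was 9.64 in shared and 9.74 in unshared SMARCA4 peaks.

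The shared part grew with the number of tags. With the peaks in 4 groups by tags, it was 19.9% among NCOA2 peaks with 8 to 27 tags, 28.1% with 28 to 37, 34.3% with 38 to 49 and 41.5% with 50 to 274. Over the same groups the median width rose from 673 to 1424 bp and the part over the NCOA2 control from 5.69% to 47.4%. Among SMARCA4 peaks the shared part was 28.2%, 33.0%, 33.6% and 44.4% from the lowest to the highest group, with widths from 242 to 616 bp and a control part of 16.2% to 23.5%. The part that width and the control play in these shares was not tested.

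Conservation differed between the SMARCA4 classes more than between the NCOA2 classes. The authors' conservation score, of unstated origin, was 0 or at least 244 at these peaks. Its median was 451 (444 to 464) in shared and 419 (409 to 427) in SMARCA4-only peaks, and 459 (450 to 469) in shared and 449 (443 to 455) in NCOA2-only peaks, where the intervals overlapped. A score of 0 stood at 120 SMARCA4-only peaks (6.74%, 5.62 to 8.01%) and at 2.03% to 2.74% of the other classes. In 763 of the 937 pairs (81.4%) both peaks carried the same score, so for most pairs the 2 scores are the same measurement. The difference between SMARCA4 classes was 32 in the score, 16 at a distance of at most 500 bp (-4 to 34) and 6 with an authors' score of at least 100 (-23 to 47).

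**Figure D2:**
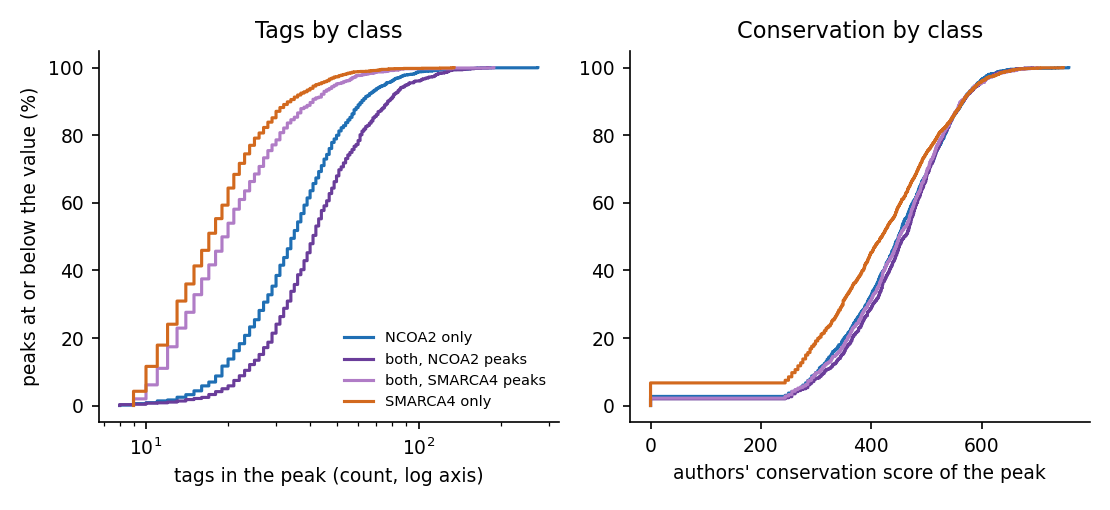
Cumulative share of peaks (y axis, %) against tags per peak (left, log axis) and against the authors' conservation score (right) for the 4 groups of promoter peaks. In both libraries the curve of the shared class lies to the right of the unshared class for tags, with medians of 41 against 35 and 20 against 17; for conservation the SMARCA4-only curve stands left of the other 3, with a median of 419.

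The summits of NCOA2 lay inside the gene more often than those of SMARCA4. The direction of each gene came from the part of a peak that the tables place upstream, and 3007 NCOA2 peaks (98.5%) and 2558 of the 2721 SMARCA4 peaks could be placed. Summits lay downstream of the gene point in 84.1% of NCOA2-only peaks (82.5 to 85.7%), with a median of 163 bp downstream, and in 83.3% of shared NCOA2 peaks (80.7 to 85.6%), with a median of 182 bp. For SMARCA4 it was 73.5% (70.5 to 76.3%) with a median of 186 bp in the shared class and 62.5% (60.1 to 64.8%) with a median of 107 bp in SMARCA4 only. SMARCA4 summits away from NCOA2 thus stood upstream of the start in a larger part of promoters, as at Kcnn1 (847 bp upstream), Igfbp4 (599 bp) and Gdf11 (328 bp), beside exceptions such as Mad2l2 (477 bp downstream). Peaks of the NCOA2 control list within 1000 bp of a gene were downstream in 66.1%, and those of NCOA1 in hindbrain in 86.9%.

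**Figure D3:**
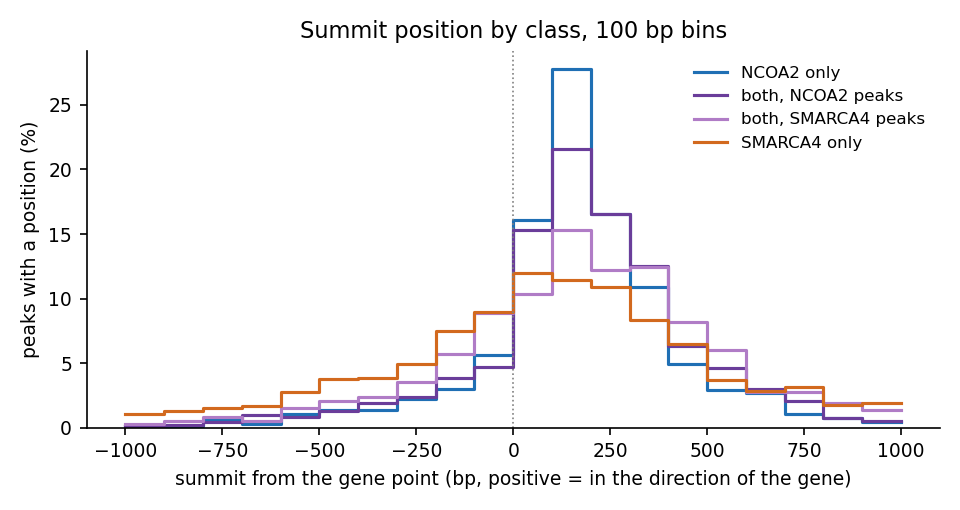
Share of placed promoter peaks (y axis, %) by the position of the summit relative to the gene point (x axis, bp, positive in the direction of the gene) in bins of 100 bp, for the 4 groups. NCOA2 summits gather just downstream of the start, with medians of 163 and 182 bp, and SMARCA4-only summits spread to both sides, with 62.5% downstream.

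Nearly all peaks of both proteins lay over forebrain H3K4me3. The mark covered 99.5% of shared NCOA2 peaks (98.8 to 99.8%) and 97.6% of NCOA2-only peaks (96.9 to 98.2%). In SMARCA4 it covered 99.5% of shared and 92.9% of unshared peaks (91.6 to 94.1%). The difference between shared and unshared peaks was 1.83 percentage points for NCOA2 (0.923 to 2.63) and 6.55 for SMARCA4 (5.24 to 7.87). With an authors' score of at least 100 these differences shrank to 0.275 and 1.42 points, and both intervals then held 0. Of the SMARCA4-only peaks 6.46% had neither mark, against 0.425% of the shared SMARCA4 peaks.

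H3K27me3 of forebrain was most frequent where SMARCA4 was without NCOA2. It lay over 166 of 1780 SMARCA4-only peaks (9.33%, 8.02 to 10.8%) and 25 of 941 shared SMARCA4 peaks (2.66%, 1.73 to 3.90%), a difference of -6.67 points (-8.34 to -4.90). In 155 of the 166 peaks H3K4me3 was present too, the pair of marks called bivalent. In NCOA2 the order was the opposite by whole peaks, with 7.26% of shared peaks (5.68 to 9.11%) and 5.15% of NCOA2-only peaks (4.25 to 6.18%). That difference was 2.10 points (0.292 to 4.14). Its interval held 0 with an authors' score of at least 100 and with a false discovery rate of at most 5%. It also held 0 when the overlap had to be at least 50% of the shorter peak. NCOA2 peaks are wide, and the summit itself was inside the mark in 1.07% and 0.898% of them, a difference of 0.169 points (-0.529 to 1.11). By summit the SMARCA4 values were 1.38% shared and 5.62% unshared. The summit measure was chosen after the data were seen.

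The peaks over H3K27me3 with the most tags were as follows. In SMARCA4 only they were led by Gdf11 with 77 tags (chr10:128329032-128329953), Tspan5 with 55, Trim67, which acts in axon branching, with 55, and Tmem117 with 51. Shared SMARCA4 peaks over the mark were led by Chd7 with 133, Rbms1 with 47, Prmt8, a brain arginine methyltransferase, with 46 and the G protein subunit Gng4 with 38. NCOA2-only peaks over it were led by Scrt1 with 155 (chr15:76351700-76354189), Celsr3, an atypical cadherin of axon guidance, with 105, Trio, which acts in axon guidance, with 96 and Gpbp1 with 70. Zfp423, a zinc finger regulator of cerebellar development, led the shared NCOA2 peaks with 103 (chr8:90482288-90484734) and 42 SMARCA4 tags, followed by Spnb2 with 84 and Fbxw4 with 81. All of these lay over H3K4me3 as well, except Trim67.

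In limb of CD1 embryos the shares also differed between the classes. Limb H3K27me3 lay over 38.4% of SMARCA4-only peaks, 14.2% of shared SMARCA4 peaks, 17.0% of shared NCOA2 peaks and 16.2% of NCOA2-only peaks. By summit alone the values were 36.1%, and 11.5% to 12.1% in the other groups. Limb H3K27ac, a mark of active elements, lay over 61.5% of SMARCA4-only peaks and over 89.6% to 92.4% of the other groups. Forebrain H3K4me1, found at enhancers and the flanks of gene starts, lay over 62.0% of SMARCA4-only, 60.3% of NCOA2-only, 59.2% of shared NCOA2 and 39.3% of shared SMARCA4 peaks. By summit alone it was 51.6% of SMARCA4-only peaks and 22.0% to 26.1% of the others. No peak of any class lay over the forebrain histone input list, which has 495 peaks.

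EP300 in face lay over 62.5% of shared NCOA2 peaks (62.7% of shared SMARCA4 peaks), 49.6% of NCOA2-only peaks and 13.6% of SMARCA4-only peaks. NCOA1 in hindbrain, the paralogue of NCOA2, lay over 24.4%, 15.0% and 1.52% (shared NCOA2, NCOA2 only, SMARCA4 only). The NCOA1 promoter peaks, 730 in all, met an NCOA2 promoter peak in 73.7% and a SMARCA4 promoter peak in 28.9%. EP300 promoter peaks of embryonic stem cells did so in 31.2% and 13.6%, those of EP300 in face in 58.35% and 29.4%, and those of SMARCC2 in face in 18.9% and 24.7%. Promoter peaks of the control lists that name genes met NCOA2 in 11.1% to 33.3% and SMARCA4 in 6.67% to 20.2%. SMARCC2 in face lay over 40.1% of SMARCA4-only, 36.3% of shared NCOA2 and 22.6% of NCOA2-only peaks. SMARCA4 of neural tube covered 95.6% of the shared NCOA2 peaks, 85.2% of NCOA2-only peaks and 77.8% of SMARCA4-only peaks, so most promoters classed as NCOA2 only here had a SMARCA4 peak in that list. In the same order, SMARCA4 of forebrain covered 53.1%, 40.1% and 48.4%. The SMARCA4 lists of other tissues differed widely. That of face covered 96.5%, 91.9% and 79.9%, limb 58.2%, 43.5% and 40.3%, and heart 30.7%, 23.45% and 15.4%. Midbrain covered 2.24%, 0.898% and 4.21%, and embryonic stem cells 3.74%, 3.88% and 3.26%. The lists also differ in peak width, with medians of 3100 bp in forebrain, 2250 bp in neural tube and 732 bp in midbrain. SMARCC2 in hindbrain, a further SWI/SNF subunit with 85 promoter peaks, covered 0.674% to 1.28% of the groups.

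Some control lists followed the classes as well. The midbrain SMARCA4 control list, with 19772 peaks, lay over 96.7% of shared NCOA2 peaks, 91.3% of NCOA2-only and 68.6% of SMARCA4-only peaks. The face EP300 control list lay over 88.7%, 86.3% and 51.6%. The NCOA1 and SMARCC2 controls of hindbrain covered 1.12% to 4.40% of any group. The part of such signal in the overlaps above was not tested.

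**Figure D4:**
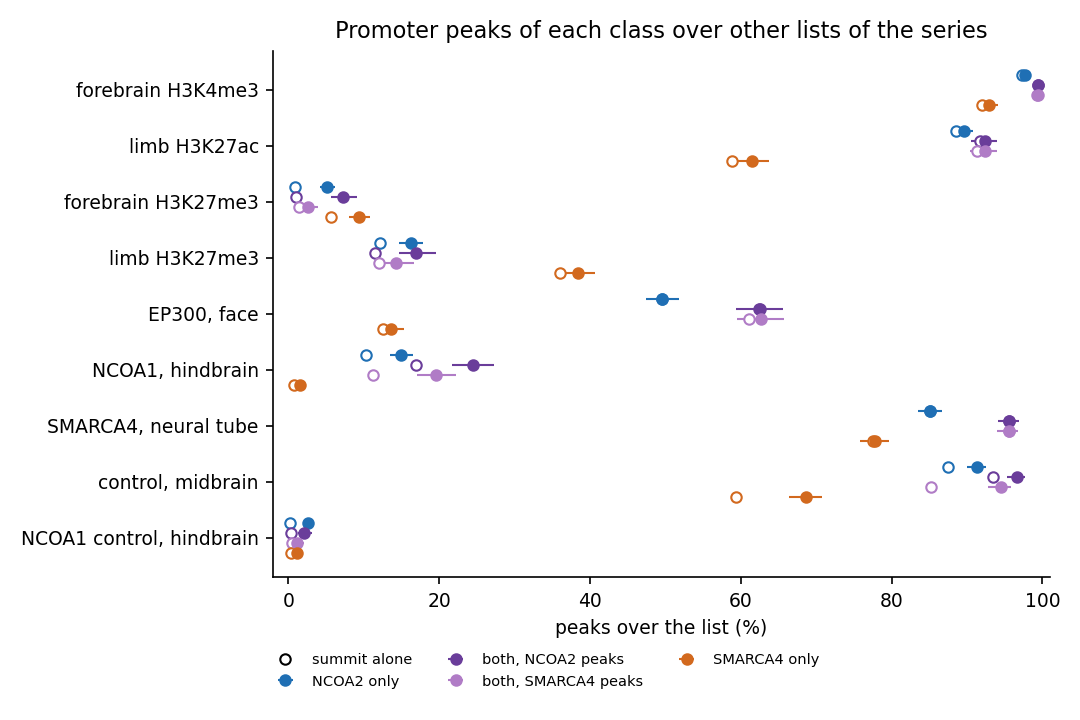
Share of the promoter peaks of each class (x axis, %) that lay over 9 other lists of the series; filled points with exact 95% intervals use whole peaks and open points the summit alone. SMARCA4-only peaks had more H3K27me3 (9.33% in forebrain, 38.4% in limb) and less EP300 (13.6%) and NCOA1 (1.52%); the midbrain control list also covers them less, at 68.6%.

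Peaks outside the NCOA2 control list numbered 2229 for NCOA2 and 2180 for SMARCA4, and are given here apart. The control list, with 6781 peaks and a median of 7 tags, lay under 823 of the 3052 NCOA2 and 541 of the 2721 SMARCA4 promoter peaks. Outside it the shared class was 632 NCOA2 peaks (28.4%, 26.5 to 30.3%) and 761 SMARCA4 peaks (34.9%, 32.9 to 37.0%). Only the counted peak had to be outside the control, and its partner in the other list could lie over it. By gene names, with the peaks of both lists outside the control, the shared part was 30.2% of NCOA2 and 31.1% of SMARCA4 genes. Over all promoter peaks it was 32.6% and 36.9%. Among the peaks over the control it was 37.1% (33.8 to 40.5%) and 33.3% (29.3 to 37.4%). NCOA2 medians outside the control were 37 tags in shared and 32 in unshared peaks, and SMARCA4 medians 19 and 17. NCOA2 peaks over the control held more tags, 51 shared and 45 unshared, yet less fold enrichment, 6.57 and 6.41 against 7.99 and 7.93 outside.

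By whole peaks, the marks kept their order outside the control. For H3K27me3 in NCOA2 the part that peak width plays in that order was not tested. Over all promoter peaks the difference by summit was 0.169 points (-0.529 to 1.11). H3K4me3 lay over 99.4% of shared and 97.3% of unshared NCOA2 peaks, and over 99.3% of shared and 91.7% of unshared SMARCA4 peaks. H3K27me3 lay over 8.39% and 5.70% of shared and unshared NCOA2 peaks, and over 2.63% and 10.01% of shared and unshared SMARCA4 peaks. Median conservation was 454.5 and 444 in NCOA2, and 449 and 415 in SMARCA4. Among the 8 shared promoters outside the control with the most NCOA2 tags were Brd2, Zfx, Gnb1, Cdc2l5 (130 NCOA2 and 15 SMARCA4 tags), Stox2 (129 and 20), Kcmf1 (124 and 35) and B3bp (119 and 85). Cdc2l5, now Cdk13, is a kinase of transcription elongation.

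By gene names, NCOA2 stood at 3035 genes and SMARCA4 at 2685, and 990 were named in both lists. These were 32.6% of the NCOA2 genes and 36.9% of the SMARCA4 genes. In 901 of the 990 the 2 peaks overlapped, and in 89 they did not. Outside the control the lists named 2219 and 2154 genes, with 670 in common (30.2% and 31.1%). Over the 14068 gene names with a promoter peak in any of the 16 tables of the series, 21.6% had NCOA2, 19.1% SMARCA4 and 7.04% both, the values against which the gene lists below were read. No list was tested, and lists share genes.

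Genes of the SWI/SNF complex held NCOA2 at 12 of 23 placed members (52.2%, beside 21.6% of all genes) and SMARCA4 at 6 (26.1%, beside 19.1%). NCOA2 stood alone at Arid1a with 164 tags and Arid1b with 143, the DNA-binding subunits of BAF, at Smarce1 with 132, Bcl7a with 76, Ss18 with 62, Actl6a with 45, Smarcc2 with 40 and Smarca4 itself with 23. SMARCA4 alone stood at Smarca2, its paralogue, with 11 tags, at Smarcc1 with 17, at Dpf3, a subunit of neuronal BAF, with 19 and at Brd9 with 9. Smarcd2 (43 NCOA2 and 44 SMARCA4 tags) and Smarcd3 (47 and 49) held both. Of the 12 genes with NCOA2, 10 had a peak outside the control, Arid1a among them through a second, smaller peak of 22 tags.

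Coactivator and corepressor genes held NCOA2 at 11 of 22 (50.0%, beside 21.6% of all genes). They held SMARCA4 at 5 (22.7%), near the 19.1% of all genes. Ep300 (82 NCOA2 and 22 SMARCA4 tags), Hdac1 (27 and 16) and Hdac2 (68 and 19) held both. NCOA2 alone stood at its own gene, Ncoa2, with 82 tags and at the corepressors Rcor1 with 81 and Ncor1 with 52 and the acetyltransferase gene Pcaf with 51. SMARCA4 alone stood at Tbl1xr1 with 35 and Ncoa6 with 16. Ep300 and Hdac2 were over the NCOA2 control, as was Ncor1.

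Polycomb genes were the list with the largest shared part and the one with more SMARCA4 than NCOA2 among the chromatin lists. SMARCA4 stood at 10 of 22 (45.5%, beside 19.1% of all genes) and NCOA2 at 8 (36.4%, beside 21.6%). Both stood at 5 of the 22, beside 7.04% of all genes. These were Cbx2 (53 NCOA2 and 41 SMARCA4 tags), Ring1 (63 and 44), Fbxl10 (36 and 31), Pcgf2 (38 and 22) and Ezh2 (42 and 10). At Ezh2, the methyltransferase of PRC2, and at Pcgf2 the 2 peaks did not overlap. SMARCA4 alone stood at Jarid2 with 53 tags and Phc1 with 34. NCOA2 alone stood at Rbbp4 with 68 and Rnf2 with 54.

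Nuclear receptors, the partners of NCOA2, held NCOA2 at 8 of 35 (22.9%) and SMARCA4 at 5 (14.3%), with both at Nr3c1, the glucocorticoid receptor (41 NCOA2 and 11 SMARCA4 tags). Over all genes the shares were 21.6% and 19.1%. NCOA2 alone stood at Nr2f6 with 83 tags, Nr2c2 with 45, Rora with 44, Thra, a thyroid hormone receptor, with 40, Rxra with 30 and Nr4a2 with 29. SMARCA4 alone stood at Nr4a3 with 24, Nr5a1 with 21, Rorb with 16 and Rarb, a retinoic acid receptor induced by its ligand, with 12. Of 16 placed targets of retinoid and thyroid hormone, NCOA2 held 2 and SMARCA4 4. Both proteins stood at Nrip1 (51 and 32 tags), a corepressor of nuclear receptors, and at Rai1 in peaks that did not overlap, while Aldh1a2, which makes retinoic acid, held SMARCA4 with 10 tags.

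Among genes of hindbrain identity NCOA2 stood at 5 of 25, beside 21.6% of all genes, and SMARCA4 at 1, En2, a midbrain and hindbrain homeobox gene, with 12 NCOA2 and 26 SMARCA4 tags. NCOA2 alone stood at Nkx6-1 with 64, Barhl1 with 35, Pax6 with 33 and Lmx1b with 17. None of the 10 placed forebrain genes held a peak of either. Of 18 placed genes of postmitotic neurons SMARCA4 stood at 5 (27.8%), NCOA2 at 2 (11.1%) and both at none, and of 21 progenitor genes at 4, 2 and none. Over all genes 19.1% held SMARCA4, 21.6% NCOA2 and 7.04% both. The SMARCA4 genes included Tubb3 with 47 tags, Elavl2 with 23, Sox11 with 20, Nes with 17 and Fabp7 with 17, and the NCOA2 genes Hes5 with 44 and Crmp1 with 43.

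Genes of the protein and RNA machinery held NCOA2 more often than SMARCA4. Splicing genes held NCOA2 at 18 of 45 (40.0%) and SMARCA4 at 5 (11.1%), cytosolic ribosomal protein genes at 20 and 5 of 65 (30.8% and 7.69%), translation factors at 15 and 9 of 44 (34.1% and 20.5%), and the proteasome at 8 and 3 of 28 (28.6% and 10.7%). Both proteins stood at 1 of the 65 cytosolic ribosomal protein genes, Rpl5, beside 7.04% of all genes, and at 4 translation factor genes, Eif4g2 (118 NCOA2 tags), Eif4h (97), Eef1a1 (70) and Eif5a (52). Respiratory chain genes held NCOA2 at 13 and SMARCA4 at 7 of 57 (22.8% and 12.3%), the first near the 21.6% of all genes and the second below the 19.1%. Mitochondrial ribosomal protein genes were below both with 9 and 4 of 56 (16.1% and 7.14%), as were genes of replication and the cell cycle with 6 and 4 of 49 (12.2% and 8.16%). Immediate early and stress genes held NCOA2 at 9 of 26 (34.6%) and SMARCA4 at 5 (19.2%), with both at Dnaja1 and Xbp1. Of 10 placed histone cluster genes SMARCA4 stood at 1 and NCOA2 at none.

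**Figure D5:**
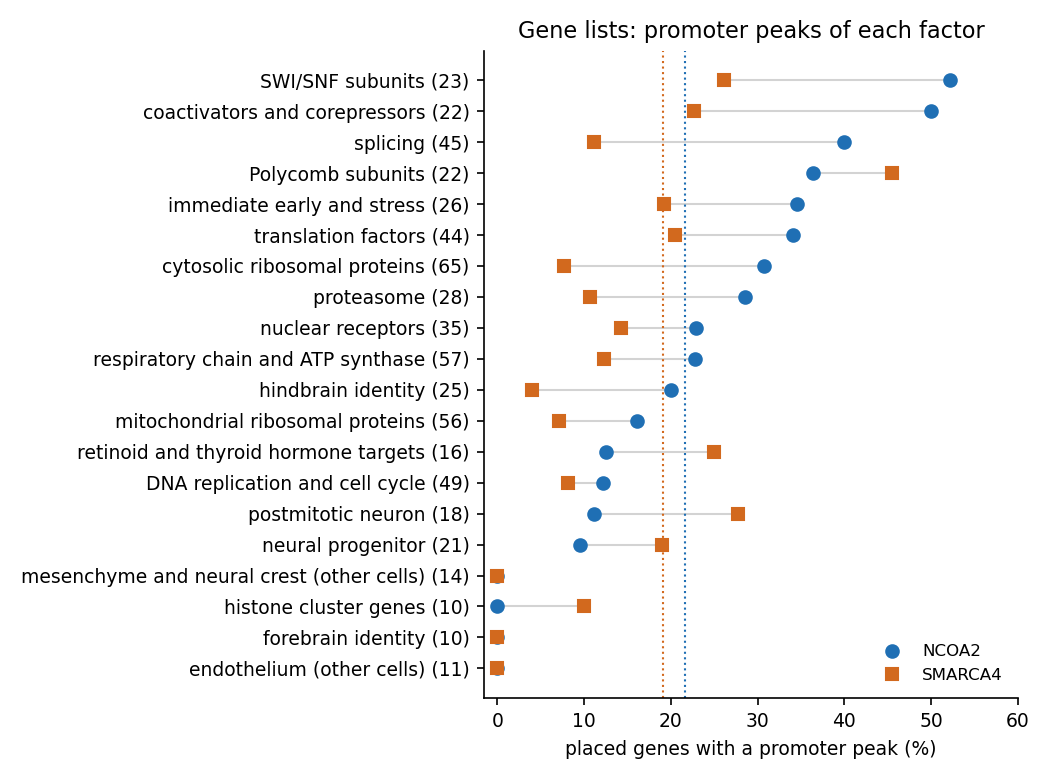
Share of the placed genes of the lists with 10 or more genes placed (x axis, %; number placed in brackets) with a promoter peak of NCOA2 (circles) or SMARCA4 (squares); dotted lines give the share over all 14068 gene names, 21.6% for NCOA2 and 19.1% for SMARCA4. NCOA2 stands to the right of SMARCA4 in most lists, and SMARCA4 to the right of NCOA2 at Polycomb subunits (45.5% against 36.4%), postmitotic neuron genes (27.8% against 11.1%), neural progenitor genes, histone cluster genes and targets of retinoid and thyroid hormone.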

How the data were processed

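Peak lists of 30 of the series' 34 samples were used. The submitters' processing notes name BWA, without a version, and mm9; the caller of the peaks is not given in the sources used here. Per the file headers, 16 lists are tables in which the authors gave each peak a count of tags and a score, -10 log10 of a p-value. The authors also deposited a fold enrichment, which is a ratio, and, in some tables, a percent false discovery rate. Conservation is a further score, and each peak carries the gene closest to its summit and how far away it lies. These deposited values are the authors' own and were used to rank, filter or describe peaks inside their own list. The lowest score at a promoter peak was 50.01, and no SMARCA4 hindbrain peak has a false discovery rate. The other 14 lists hold positions.

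Overlaps of at least 1 bp were counted with Python 3.11.15, numpy 2.4.6, pandas 2.3.3 and scipy 1.17.1. Shares have exact Clopper-Pearson intervals, medians order-statistic intervals and differences of shares Newcombe intervals. Overlap, interval and gene point code was tested on simulated data. Gene points were worked out from summits and distances for 18934 of 23432 transcripts. The strand came from the tables' length upstream of the gene, which matched 1 side of the point in 28054 of 28083 peaks and the RefSeq strand in 8704 of 8729 transcripts. Where that gave none, the RefSeq strand was used. Of 14068 gene names, 12336 matched RefSeq.

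Named genes are, for each class and list, the 6 promoter peaks with the most tags whose gene has a symbol (not a clone or sequence name), the same outside the NCOA2 control, the 8 shared peaks outside the control with the most NCOA2 tags, and the 4 H3K27me3 peaks with the most tags. Sequences are of the named genes with most tags and a single RefSeq start. From the gene lists of hindbrain identity, nuclear receptors, SWI/SNF and coactivators up to 6 members were to be named; further list members were named after their values were seen, as examples. The classes, gene lists and rules were chosen with earlier results of these data known, and no list is independent support. A gene that the rule names is not reported here.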

Additional observations from a re-analysis of the deposited data

How the results depend on the processing

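Of 106 values under alternatives, 88 stayed within the counting error of the main value (gene counts: within 1.5 times), 18 moved and 0 reversed. A reversal was possible only for differences whose main interval left out 0 and ratios whose main interval left out 1. Shared percentages, gene counts and the NCOA2 conservation difference could not be called reversed. The shared part of NCOA2 peaks (main 30.7%) became 25.2% at 500 bp, 28.4% outside the control, 11.9% with a score of at least 100, 33.7% with a false discovery rate of at most 5% and 23.2% with peaks cut to 200 bp on each side of the summit. For SMARCA4 (main 34.6%) it became 31.8% at 500 bp (31.79), 21.9% by score, 26.1% by false discovery rate, 31.8% with lists of equal length (31.83) and 26.0% with cut peaks. Shared minus unshared H3K4me3 moved to 0.275 points by score for NCOA2, and to 8.16 at 2000 bp and 1.42 by score for SMARCA4. H3K27me3 moved to 0.169 (NCOA2) and -4.24 (SMARCA4) by summit. The SMARCA4 conservation difference was 16 at 500 bp and 6 by score. The genes named in both lists were 990, and 125 by score. The causes were not tested, beyond fewer peaks under stricter thresholds. Of the 49 named peaks, 35 kept their class with cut peaks, 29 of the 48 still present by score, 26 of 33 at 500 bp, and all, or all but 1 or 2, of those present under the other alternatives. Cut peaks, summits and scores above 0 were chosen after the data were seen. The planned word search outside the control was run, but that comparison is void too. There, only 76.4% of NCOA2-only, 72.8% of shared and 70.5% of SMARCA4-only genes had a window. No paired analysis was possible because each condition had 1 library. Depth limits what is called: the median SMARCA4 promoter peak held 18 tags, so a promoter without a peak is not shown to lack the protein.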

Other observations

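The NCOA2 peaks away from promoters were few but held the extremes of the list. The peak with the most tags of all, 1916 over chr9:21385991-21394145, lay 4254 bp from 1810026J23Rik with a fold enrichment of 23.82, and was over the NCOA2 control, the face EP300 control and the midbrain SMARCA4 control. The peak with the highest fold enrichment, 180.15 with 164 tags over chrX:103398886-103399565, lay 15635 bp from Taf9b. It met no peak of any other list used. By position it is a close neighbour of the Pgk1 promoter peak (chrX:103381691-103382874, fold enrichment 90.43), the NCOA2 promoter peak with the most tags. The source of these neighbouring extremes was not tested. Both peaks were outside the NCOA2 control. A distal peak of 158 tags, 24840 bp from Kiaa0240 (chr17:46993330-46995047), lay over SMARCA4 and NCOA1 of hindbrain and forebrain H3K4me3. These peaks were chosen after their values were seen.

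Distal NCOA2 peaks lay over forebrain H3K4me3 in 57.4% (52.3 to 62.3%) and over forebrain H3K27me3 in 11.99% (8.94 to 15.6%), with a median of 20 tags. Distal SMARCA4 peaks lay over them in 32.5% and 5.33%, with a median of 15 tags.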
